A study of Mus musculus with 6 samples.

Results

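The genes described here encode proteins that keep cells alive. They are the survival members of the BCL2 family (Bcl2, Bcl2l1, Bcl2l2 and Mcl1), the inhibitor of apoptosis proteins or IAPs (Xiap, Birc2 and Birc3), and Cflar, Nol3 and Hax1, which block death signals at receptors or at mitochondria. They were taken by gene symbol, and all 10 had a row among the 27482 of the count table and were among the 14663 genes tested. RNA-seq counts of 3 AAV9-hFNDC4 libraries were compared with those of 3 AAV9-CTRL libraries. The first group came from male mice given an adeno-associated virus of serotype 9 (AAV9) for overexpression of FNDC4, a secreted protein with a fibronectin type III domain. The second came from male mice given a control AAV9. All mice of both groups underwent cardiac ischemia/reperfusion (I/R), a block of blood flow followed by its return, and hearts were taken 24 h later. The sources used here give no strain, age, vector promoter or vector dose. Fndc4 itself was not analysed here. The labels do not tie each library to an animal of its own, so every p-value below reflects variation between libraries that may be technical.

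Apoptosis through mitochondria is decided by contacts among BCL2 family proteins. The survival members hold the pore formers Bax and Bak1 and the BH3-only sensors in check, and where they fail, the outer mitochondrial membrane opens and cytochrome c is released. Cytochrome c and Apaf1 then activate Casp9. Xiap binds and inhibits caspases directly, whereas Birc2 and Birc3 are ubiquitin ligases that act mainly on Traf2, Ripk1 and NF-kB signalling below TNF receptors. Loss of heart muscle cells by this route is a known part of I/R injury.

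AAV9-hFNDC4 libraries held 34419687 to 35149915 counts, and AAV9-CTRL libraries held 32975817 to 36074046. The groups did not overlap in the number of genes with a count. It was 18717 to 18863 in AAV9-hFNDC4 libraries and 20431 to 20870 in AAV9-CTRL libraries. TMM scaling factors were 1.03 to 1.07 in AAV9-hFNDC4 libraries and 0.929 to 0.959 in AAV9-CTRL libraries. What makes the groups differ in this was not tested. Transcripts specific to heart muscle were scarce. Of 18 cardiomyocyte markers, 5 reached 1 CPM (counts scaled to library size) in at least 3 libraries, with Myl7, Pln and Nkx2-5 at 0 and Myh6 at a mean of 0.276 CPM. Their summed level was 438 to 495 CPM in AAV9-hFNDC4 libraries and 462 to 694 CPM in AAV9-CTRL libraries, most of it Atp2a2. The 10 fibroblast markers, of which 6 reached that level, summed to 11811 to 12971 CPM in AAV9-hFNDC4 libraries, against 6836 to 7992 CPM in AAV9-CTRL libraries, while Dcn, Lum and Tcf21 were under 1 CPM. Most of that difference was Fn1, at a mean of 5467 TMM-scaled CPM in AAV9-hFNDC4 libraries and 1890 in AAV9-CTRL libraries, while Vim averaged 3260 in AAV9-hFNDC4 libraries and 3906 in AAV9-CTRL libraries and did not pass. Without Fn1 the sum was 5831 to 7084 CPM in AAV9-hFNDC4 libraries and 4904 to 6272 CPM in AAV9-CTRL libraries, and Vim made up much of it. Col3a1 (log2 fold change 0.91), Pdgfra (1.21) and Col1a2 (0.44) were also higher in AAV9-hFNDC4 libraries and passed. Col1a1 (0.34) did not pass. Of 8 mural cell markers 3 reached 1 CPM in at least 3 libraries. All 8 summed to 641 to 731 CPM in AAV9-hFNDC4 libraries and 349 to 412 CPM in AAV9-CTRL libraries. Nearly all of this was Cspg4 (log2 fold change 0.72) and Pdgfrb (1.05), which passed, and Des (0.09), which did not. Acta2, Tagln, Myh11, Cnn1 and Rgs5 averaged under 1 CPM, and of these Tagln was lower (-1.80) and passed. Endothelial markers (4 of 10) summed to 208 to 240 CPM in AAV9-hFNDC4 libraries and 220 to 239 CPM in AAV9-CTRL libraries. Nearly all of this was Eng, at a mean of 224 CPM over all libraries. Pecam1 averaged 1.70, Kdr 0.183 and Cdh5 0.0283 CPM, and Emcn had 0. Macrophage markers (6 of 9) summed to 39.3 to 47.4 CPM in AAV9-hFNDC4 libraries and 46.0 to 57.3 CPM in AAV9-CTRL libraries, and Ptprc, the general leukocyte marker, averaged 0.0910 CPM. Among the macrophage markers Cd68 was lower (log2 fold change -1.25), Mertk was higher (0.73), and Itgam, which shares 70.0% of its exon bases with Gm49368, had 0 reads in every AAV9-hFNDC4 library, against 61, 47 and 60 reads in AAV9-CTRL libraries. No neutrophil, lymphocyte or erythroid marker reached 1 CPM in 3 libraries. These levels go against the label heart, so the groups are named by their labels, and whether the material was heart tissue was not tested. The part of these marker levels in the results below was not tested, and fewer cells of a type and less RNA per cell cannot be told apart in such samples.

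Bcl2 and Xiap were higher in the libraries labelled AAV9-hFNDC4, and Mcl1, Bcl2l1 and Hax1 were lower. Calls were made with edgeR's quasi-likelihood test at a Benjamini-Hochberg adjusted p under 0.05 over all genes tested. The members thus gave 2 higher, 3 lower and 5 that did not pass, at a background of 22.1% of all tested genes higher and 25.0% lower, or 47.1% in either direction. In 7 of the 10 members the groups did not overlap in CPM, against 56.6% of all tested genes. The number of members called was near these backgrounds. The members' median log2 fold change was -0.20, against 0.01 over all tested genes. With library sizes set by summed counts per kb of exon in place of TMM, the median of all tested genes moved to 0.41. Bcl2 and Xiap then passed at 1.26 and 1.38, joined by Birc2 (0.61) and Nol3 (0.35), while Mcl1 (-0.17), Bcl2l1 (-0.018) and Hax1 (-0.23) had negative values that did not pass (edgeR). Relative to that median Bcl2 had 0.85, Xiap 0.97, Birc2 0.21 and Nol3 -0.062, so the value of Nol3 lay below the median. Mcl1 had -0.57, Bcl2l1 -0.43 and Hax1 -0.64 relative to it.

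Bcl2, the founding survival protein of the family, had 39.9, 41.6 and 43.4 CPM in AAV9-hFNDC4 libraries and 23.0, 28.8 and 17.3 CPM in AAV9-CTRL libraries. Every AAV9-hFNDC4 library lay above every AAV9-CTRL library, and the AAV9-CTRL libraries were the more spread out. The mean was 41.6 ± 1.75 CPM in AAV9-hFNDC4 libraries and 23.0 ± 5.76 CPM in AAV9-CTRL libraries (SD, n = 3 each). The log2 fold change was 0.86 (SE 0.16, edgeR adjusted p = 0.00128), a 1.81-fold higher mean level. The gene lies at chr1:106538178-106714274 on the minus strand (GRCm38), and 6.09% of its exon bases are shared with D630008O14Rik on the opposite strand.

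Mcl1, a short-lived survival protein that is needed continuously in heart muscle, was lower. Its levels were 344, 398 and 329 CPM in AAV9-hFNDC4 libraries and 523, 552 and 510 CPM in AAV9-CTRL libraries. The highest AAV9-hFNDC4 library lay well below the lowest AAV9-CTRL library. The mean was 357 ± 36.7 CPM in AAV9-hFNDC4 libraries and 528 ± 21.4 CPM in AAV9-CTRL libraries (SD, n = 3 each), a log2 fold change of -0.57 (SE 0.11, edgeR adjusted p = 0.00125). Mcl1 lies at chr3:95658788-95663176 on the plus strand (GRCm38).

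Bcl2l1, which encodes BCL-xL, the survival protein that holds Bax and Bak1 at the mitochondrial membrane, was lower by a smaller amount. It had 68.7, 59.5 and 67.1 CPM in AAV9-hFNDC4 libraries and 95.6, 85.2 and 79.7 CPM in AAV9-CTRL libraries, with no overlap. The mean was 65.1 ± 4.92 CPM in AAV9-hFNDC4 libraries and 86.8 ± 8.07 CPM in AAV9-CTRL libraries (SD, n = 3 each). The log2 fold change was -0.42 (SE 0.11, edgeR adjusted p = 0.00968). Without AAV9-CTRL replicate 1, the highest library, it was -0.31 and did not pass (edgeR adjusted p = 0.0534). With a correction for GC content it was -0.26 and did not pass either (edgeR adjusted p = 0.0842). Bcl2l1 lies at chr2:152780668-152831728 on the minus strand (GRCm38).

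Bcl2l2, which encodes BCL-w, had 71.9, 79.8 and 69.0 CPM in AAV9-hFNDC4 libraries and 71.6, 102 and 70.3 CPM in AAV9-CTRL libraries. The groups overlapped, and 1 library, AAV9-CTRL replicate 2, stood above the rest. The log2 fold change of -0.14 (SE 0.15) did not pass (edgeR adjusted p = 0.445), and it was 0.053 without that library. Bcl2l2 lies at chr14:54883377-54888234 on the plus strand (GRCm38), and 14.6% of its exon bases are shared with Gm20521 on the same strand. Counts were made per gene, so the long and short forms of Bcl2l1 and Mcl1, some of which promote death, could not be told apart.

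**Figure D1:**
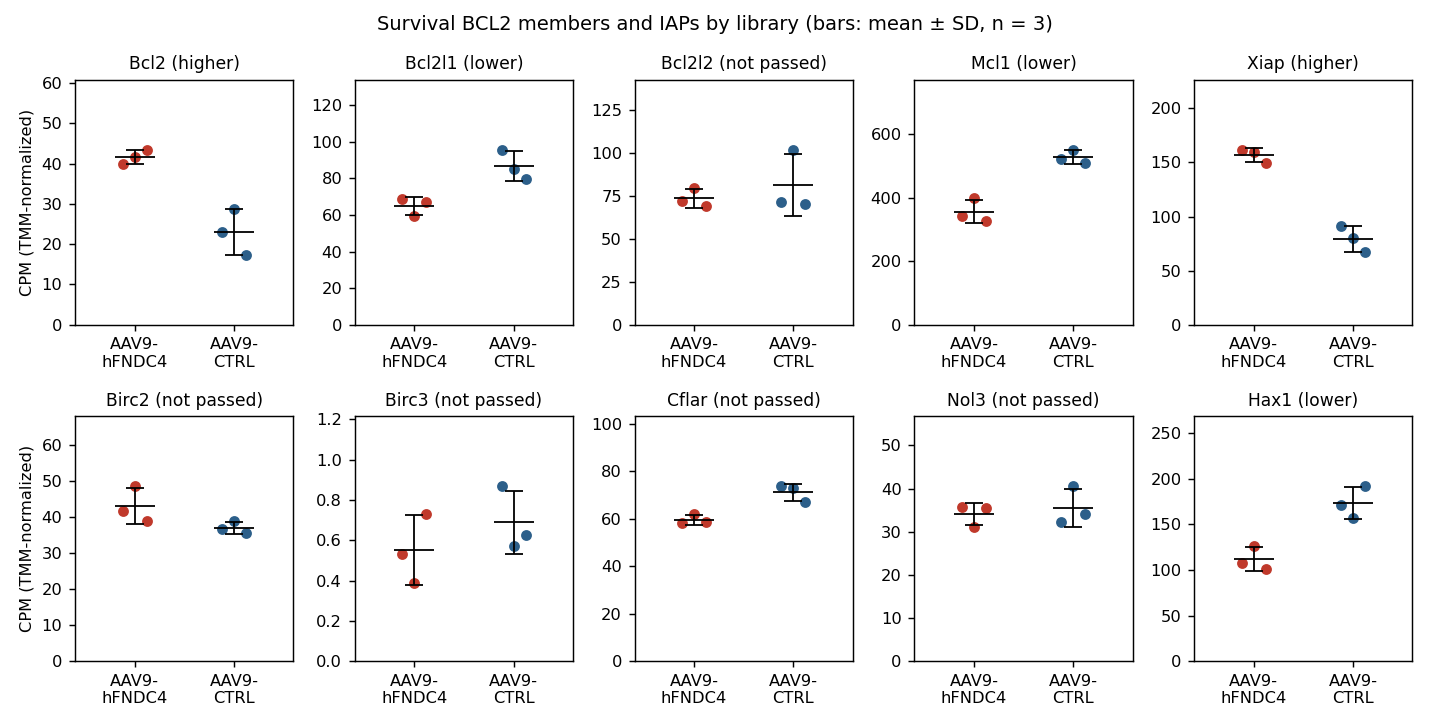
Levels of the 10 members in each library (CPM after TMM scaling; each panel has its own vertical axis). Points are libraries, with AAV9-hFNDC4 left and AAV9-CTRL right, and lines are group means with SD (n = 3). Bcl2 and Xiap have all AAV9-hFNDC4 points above the AAV9-CTRL points, Mcl1, Bcl2l1, Hax1 and Cflar have them below, the Birc2 groups nearly touch, and Bcl2l2, Nol3 and Birc3 overlap.

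Among the IAPs, Xiap rose and the Birc2 and Birc3 pair did not pass. Xiap, the direct caspase inhibitor, had 162, 160 and 149 CPM in AAV9-hFNDC4 libraries, against 91.2, 80.3 and 66.9 CPM in AAV9-CTRL libraries. The lowest AAV9-hFNDC4 library exceeded the highest AAV9-CTRL library by more than the range within either group. The mean was 157 ± 6.72 CPM in AAV9-hFNDC4 libraries and 79.5 ± 12.1 CPM in AAV9-CTRL libraries (SD, n = 3 each), which is 1.98-fold higher (log2 fold change 0.98, SE 0.12, edgeR adjusted p = 9.78e-05). Of all tested genes, 91.0% had a lower log2 fold change. Xiap lies at chrX:42059679-42109656 on the plus strand (GRCm38).

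Birc2, which encodes cIAP1, and Birc3, which encodes cIAP2, are neighbours on chromosome 9, with 11634 bases between them in GRCm38 (chr9:7818227-7837064 and chr9:7848699-7873186, both on the minus strand). Birc2 had 41.6, 48.5 and 38.9 CPM in AAV9-hFNDC4 libraries and 36.8, 38.9 and 35.6 CPM in AAV9-CTRL libraries. The groups touched without overlapping, at 38.94 CPM in the lowest AAV9-hFNDC4 library and 38.85 CPM in the highest AAV9-CTRL library, and the log2 fold change of 0.22 (SE 0.12) did not pass (edgeR adjusted p = 0.154). Birc3 was the lowest member, with 20, 14 and 27 reads in AAV9-hFNDC4 libraries and 30, 18 and 21 reads in AAV9-CTRL libraries. The Birc3 groups overlapped, and its log2 fold change of -0.32 had an SE of 0.48 (edgeR adjusted p = 0.606). The fitted log2 fold changes of Xiap and Birc2 differed by 0.77, by 0.44 with a correction for transcript length and by 0.63 with one for GC content. These differences were not tested.

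Hax1, a mitochondrial protein whose loss causes neutropenia in humans and which binds phospholamban and the calcium pump of heart muscle, fell. It had 108, 126 and 101 CPM in AAV9-hFNDC4 libraries and 172, 157 and 192 CPM in AAV9-CTRL libraries, with no overlap. The mean was 112 ± 13.0 CPM in AAV9-hFNDC4 libraries and 173 ± 17.4 CPM in AAV9-CTRL libraries (SD, n = 3 each), a log2 fold change of -0.63 (SE 0.12, edgeR adjusted p = 0.00113). With a correction for transcript length the log2 fold change was -0.19 and did not pass (edgeR adjusted p = 0.233). Hax1 lies at chr3:89995446-89998780 on the minus strand (GRCm38).

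Cflar, which encodes c-FLIP, the decoy that keeps caspase-8 from being activated at death receptors, had 58.2, 62.0 and 58.8 CPM in AAV9-hFNDC4 libraries and 73.7, 72.9 and 66.9 CPM in AAV9-CTRL libraries. All AAV9-hFNDC4 libraries lay below the AAV9-CTRL libraries, yet the log2 fold change of -0.25 (SE 0.10) did not pass (edgeR adjusted p = 0.0572). It passed with the length correction (-0.59, edgeR adjusted p = 0.000712), with the GC correction (-0.27, 0.0360) and when genes under 1 CPM were filtered out (-0.26, 0.0492). With scaling to summed counts per kb it was 0.14, of the opposite sign, and did not pass. The median of all tested genes was then 0.41, and relative to that median Cflar had -0.26. Cflar lies at chr1:58711508-58758884 on the plus strand (GRCm38), and its long and short forms share these counts.

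Nol3, which encodes ARC, a repressor of death receptor and mitochondrial signals that is abundant in muscle, had 35.7, 31.1 and 35.6 CPM in AAV9-hFNDC4 libraries and 32.1, 40.5 and 34.1 CPM in AAV9-CTRL libraries. The groups overlapped, with a log2 fold change of -0.06 (SE 0.12, edgeR adjusted p = 0.721). Nol3 lies at chr8:105276140-105281939 on the plus strand (GRCm38). The value is uncertain, since 48.2% of its exon bases are shared with 4931428F04Rik on the opposite strand and no source used here gives the strand setting of the counting. That gene had 417, 463 and 491 reads in AAV9-hFNDC4 libraries and 562, 449 and 480 reads in AAV9-CTRL libraries.

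**Figure D2:**
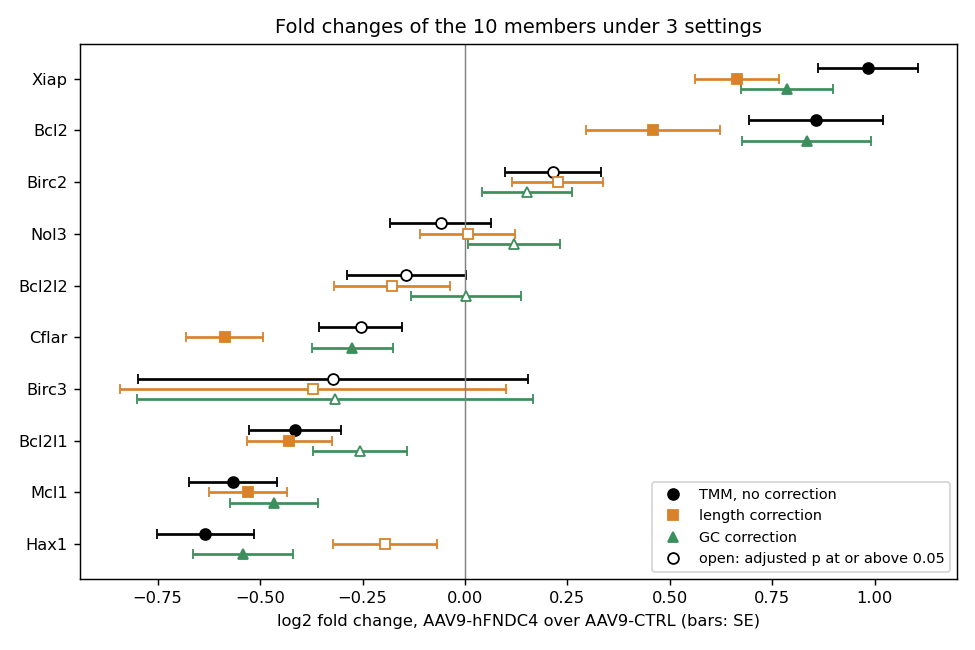
Log2 fold change of each member, AAV9-hFNDC4 over AAV9-CTRL, with its SE, in the edgeR fit and with corrections for transcript length and for GC content. Xiap and Bcl2 stay above 0 and Mcl1 and Bcl2l1 below 0 in all 3 fits, while Hax1 moves from -0.63 to -0.19 and Cflar from -0.25 to -0.59 with the length correction.

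Transcript length moved with the fold changes of these libraries, which touches several members. Over all tested genes with an annotated length, the median log2 fold change was -0.51 in the shortest and 0.45 in the longest of 10 equal classes of length. The members that rose are long, with 9157 exon bases in Bcl2 and 7750 in Xiap, and Hax1, which fell, is short with 1204, against a median of 3135.5 over tested genes. Cflar is as long as Xiap, at 7870 exon bases, and its log2 fold change was nonetheless negative. With the length correction the log2 fold change of Bcl2 was 0.46 (edgeR adjusted p = 0.0416) and that of Xiap 0.66 (edgeR adjusted p = 0.000556), so both passed at smaller values. Mcl1 and Bcl2l1, at 3418 and 3887 exon bases, kept values of -0.53 and -0.43. In GC content Xiap was extreme, at 38.2%, with 1.48% of tested genes lower, and its log2 fold change was 0.79 with the GC correction. What makes length move with the groups was not tested.

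**Figure D3:**
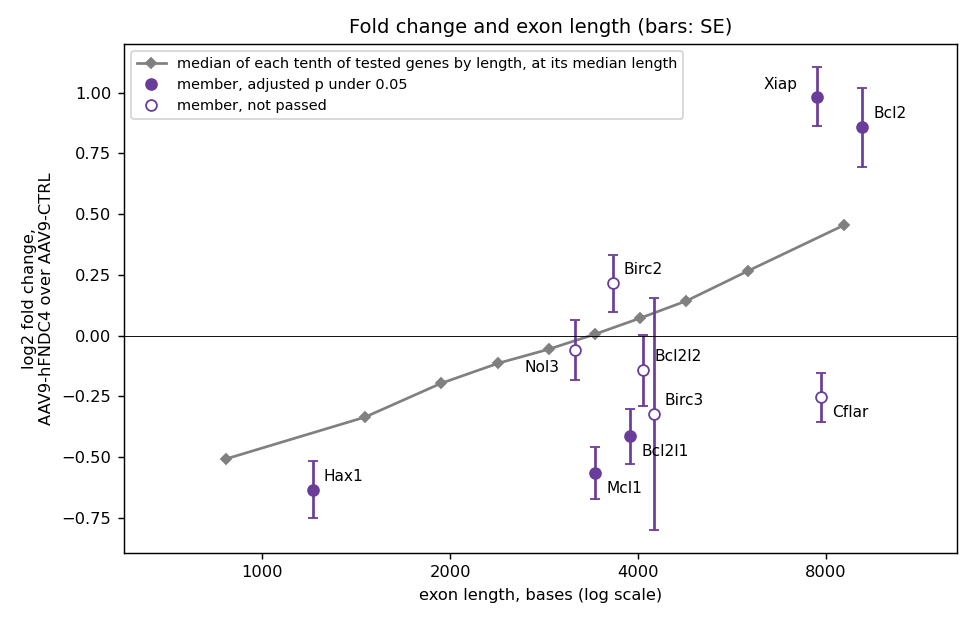
Exon length (bases, log axis) against log2 fold change, AAV9-hFNDC4 over AAV9-CTRL, for the 10 members, with SE bars and the median of all tested genes in each of 10 length classes as a line. The line climbs from -0.51 to 0.45, and Cflar lies well below it at its length.

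Levels of different genes were compared as CPM per kb of exon. In AAV9-hFNDC4 libraries Mcl1 was first with a level of 104 CPM per kb and Hax1 followed at 92.8, with ranges that overlapped. Xiap (20.3), Bcl2l2 (18.0) and Bcl2l1 (16.8) came next, each overlapping its neighbour, then Birc2 (11.8) and Nol3 (10.7), which overlapped too, and then Cflar (7.58), Bcl2 (4.55) and Birc3 (0.130 CPM per kb), which did not. In AAV9-CTRL libraries Mcl1 (155 CPM per kb) and Hax1 (144) again led and overlapped. Bcl2l1 (22.3) and Bcl2l2 (19.9) came next and overlapped. Nol3 (11.2), Xiap (10.3) and Birc2 (10.2) formed a group of overlapping levels, followed by Cflar (9.04), Bcl2 (2.51) and Birc3 (0.163 CPM per kb).

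The makeup of the BCL2 survival group differed accordingly. The levels of Bcl2, Bcl2l1, Bcl2l2 and Mcl1 summed to 144 ± 10.9 CPM per kb in AAV9-hFNDC4 libraries and 199 ± 11.4 CPM per kb in AAV9-CTRL libraries (SD, n = 3 each). Mcl1 made up 72.5% ± 1.91 of this sum in AAV9-hFNDC4 libraries and 77.6% ± 1.35 in AAV9-CTRL libraries. Bcl2 made up 3.18% ± 0.305 in AAV9-hFNDC4 libraries and 1.25% ± 0.245 in AAV9-CTRL libraries. The gene that rose was thus the scarcest of the 4 transcripts and the one that fell most was the most abundant. The 3 IAPs summed to 32.2 ± 1.97 CPM per kb in AAV9-hFNDC4 libraries and 20.6 ± 1.83 CPM per kb in AAV9-CTRL libraries. Xiap was 63.0% ± 2.05 of the IAP sum in AAV9-hFNDC4 libraries and 49.6% ± 3.42 in AAV9-CTRL libraries, and Birc3 stayed under 1% in every library. Sums and shares are descriptions of values tested above and were given no test of their own. The sums rest on TMM sizes and were not computed with scaling to summed counts per kb. With that scaling the median log2 fold change of all tested genes was 0.41, and Mcl1 had -0.17 and did not pass. The shares carry no length correction. The log2 fold changes of Bcl2 and Mcl1 differed by 1.42, and by 0.99 with the length correction.

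Bcl2 and Mcl1 were also set against Bax, the pore former that they restrain, since a ratio of counts within a library needs no scaling between libraries. Bax had 83.7, 91.6 and 81.7 CPM in AAV9-hFNDC4 libraries and 156, 166 and 162 CPM in AAV9-CTRL libraries. The Bcl2 to Bax ratio of counts was 0.477, 0.454 and 0.532 in AAV9-hFNDC4 libraries and 0.148, 0.173 and 0.107 in AAV9-CTRL libraries. These ranges were far apart, with a log2 difference of 1.80, and 1.51 with the GC correction. With the length correction the difference was 0.86. The Mcl1 to Bax ratio was 4.11, 4.35 and 4.02 in AAV9-hFNDC4 libraries and 3.36, 3.32 and 3.16 in AAV9-CTRL libraries. Mcl1 was lower in level, yet its ratio to Bax was higher by 0.34 on the log2 scale; with the length correction this difference was -0.13, of the opposite sign. In an exact two-sided permutation test each ratio gave p = 0.1, the smallest that 20 regroupings of 3 against 3 libraries allow. Bax shares 22.1% of its exon bases with Gm45808.

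**Figure D4:**
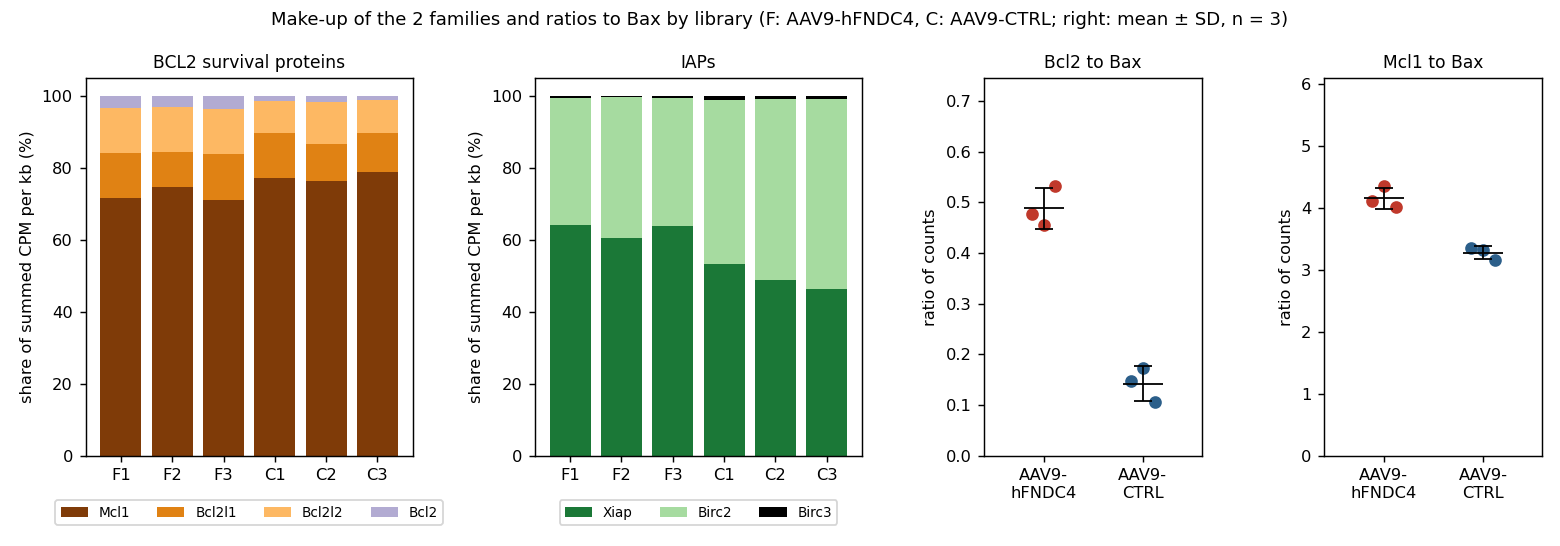
Makeup of the BCL2 survival group and of the IAPs as shares of their summed CPM per kb (percent), and the Bcl2 to Bax and Mcl1 to Bax ratios of counts per library, with AAV9-hFNDC4 left of AAV9-CTRL. The Bcl2 to Bax ratio is 0.454 to 0.532 in AAV9-hFNDC4 libraries and 0.107 to 0.173 in AAV9-CTRL libraries.

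The partners and targets of the members were described from 10 lists, which held 82 tested genes other than the members, of which 20 (24.4%) were higher and 32 (39.0%) lower, against 22.1% and 25.0% of all tested genes. The counts of single lists below stand against the same background only where they come from this fit. Counts under other settings have backgrounds of their own. With scaling to summed counts per kb the median log2 fold change of all tested genes was 0.41. Many more of all tested genes were then higher than lower, with their numbers in the last section. The backgrounds of the length and GC corrections are not given here. Without AAV9-CTRL replicate 3 there were 12 higher and 26 lower, and without AAV9-hFNDC4 replicate 3 there were 13 higher and 26 lower. With the length correction there were 14 higher and 21 lower, and with scaling to summed counts per kb 36 higher and 9 lower. Several single calls rested on few libraries, and those are named below.

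All 3 pore formers were lower, of which Bax and Bak1 also passed with scaling to summed counts per kb. Bax had a log2 fold change of -0.91 (SE 0.10, edgeR adjusted p = 4.45e-05), Bak1 of -0.81 and Bok of -0.49. With the length correction Bax had -0.40 and passed. Bok did not pass with the length correction (-0.11, edgeR adjusted p = 0.402) or the GC correction (-0.20). The BH3-only list, made up mainly of sensors that switch survival members off, split into 4 higher, 2 lower and 1 not passed of 7 tested. Whether each gene of it, Bnip3 and Bnip3l among them, acts in this way was not tested. Bbc3 (0.88), Bnip3l (0.68), Bnip3 (1.73) and Bmf (1.44) were higher, and Bcl2l11 (-0.95) and Bad (-0.65) were lower. Bmf did not pass without AAV9-hFNDC4 replicate 1 (1.38) or 3 (1.32), or without AAV9-CTRL replicate 1 (1.07) or 3 (1.30), and had 2.25 without AAV9-CTRL replicate 2. Bnip3 did not pass without a low-count filter (edgeR adjusted p = 0.0863), and Bad had -0.41 with the GC correction and passed. Bcl2l11 binds all of the BCL2 survival proteins described here, and Bad binds Bcl2, Bcl2l1 and Bcl2l2 but not Mcl1. Bid, cleaved by caspase-8, had a log2 fold change of 0.13 and did not pass. It passed as higher with the length correction and with scaling to summed counts per kb, at values up to 0.53.

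Of 7 factors that leave mitochondria or bind IAPs, 5 were lower and none higher, and with scaling to summed counts per kb Cycs alone passed and Htra2 and Aifm1 changed sign. Cycs (cytochrome c) had a log2 fold change of -1.20, Diablo, the antagonist that displaces caspases from Xiap, of -0.65, Endog of -0.47, Aifm1 of -0.27 and Htra2, another IAP antagonist, of -0.39. The calls of Cycs and Diablo held with the length correction, at -1.13 and -0.64, while the list then gave 2 lower, as it did with the GC correction. Htra2 did not pass without AAV9-hFNDC4 replicate 3 (-0.37) or AAV9-CTRL replicate 3 (-0.35). Endog did not pass without AAV9-hFNDC4 replicate 1 (-0.44) or 2 (-0.43), or without AAV9-CTRL replicate 2 (-0.37). Aifm1 passed in leave-one-out fits only without AAV9-CTRL replicate 2, and its values ranged from -0.32 to -0.23. None of these 3 passed with the length correction (Htra2 -0.10, Endog -0.0018, Aifm1 -0.10) or the GC correction (-0.18, -0.16 and -0.21 in that order). Diablo, Htra2 and Endog share 32.9%, 34.0% and 35.7% of their exon bases with other genes. Of 6 tested genes, 5 caspases and Apaf1, 1 was higher and none lower, against 5 higher with scaling to summed counts per kb. Casp9 had a log2 fold change of 0.36 (edgeR adjusted p = 0.0460), which did not pass with the length correction (0.34, edgeR adjusted p = 0.0523), nor without AAV9-hFNDC4 replicate 1 (0.36) or 3 (0.26), or AAV9-CTRL replicate 1 (0.36) or 3 (0.32). Casp2 (0.19), Apaf1 (0.12) and Casp8 (-0.09), the caspase that Cflar holds in check, did not pass.

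Around the receptors that Cflar and the IAPs serve, 3 of 12 tested genes were higher, 3 lower and 6 not passed, against 6 higher and 1 lower with scaling to summed counts per kb and 5 higher and 2 lower with the GC correction. Fadd (0.69), the adaptor that recruits caspase-8 and Cflar, Traf2 (0.41), which brings Birc2 to TNF receptors, and Cyld (0.42) were higher. Tnf (-1.56), its adaptor Tradd (-0.52) and the death receptor Tnfrsf10b (-0.81) were lower. Traf2 did not pass without AAV9-hFNDC4 replicate 2 (0.26) or AAV9-CTRL replicate 3 (0.39), Tradd without AAV9-hFNDC4 replicate 3 (-0.50), and Cyld with the length correction (0.07). Tradd also did not pass with the length correction (-0.21) or the GC correction (-0.30). Ripk1, ubiquitinated by Birc2 and Birc3, had a log2 fold change of 0.10 and did not pass. In non-canonical NF-kB signalling, where Birc2, Traf2 and Traf3 together keep Map3k14 low, 5 of 8 genes were lower and none higher, against 1 lower and 1 higher with scaling to summed counts per kb. They were Tnfrsf12a (-1.57), Chuk (-0.72), Traf3 (-0.61), Map3k14 (-0.59) and Ltbr (-0.35). Ltbr did not pass without AAV9-hFNDC4 replicate 1 or 3, or without AAV9-CTRL replicate 1 or 3, at -0.35 to -0.29, nor with the GC correction (-0.10) or the length correction (-0.14). Traf3 had -0.39 without AAV9-CTRL replicate 2 and Map3k14 -0.37 with the GC correction, and both passed.

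For Mcl1, whose protein is turned over quickly, 9 regulators of turnover gave 3 higher, 2 lower and 4 not passed, against 5 higher and 1 lower with scaling to summed counts per kb. Gsk3b (1.20), a kinase that marks Mcl1 for destruction, Huwe1 (0.53), its ubiquitin ligase, and Usp9x (0.77), a deubiquitinase that stabilizes it, were all higher. Marchf5 (-0.43), a mitochondrial ubiquitin ligase, and Bag3 (-2.10), a co-chaperone, were lower. With the length correction Huwe1 (-0.01) and Marchf5 (-0.22) did not pass, and Usp9x had 0.29 and passed. Huwe1 also did not pass without AAV9-hFNDC4 replicate 3 (0.51) or AAV9-CTRL replicate 3 (0.52). Of 5 partners of Hax1, Hcls1 (-0.74), Atp2a2 (-0.61) and Htra2 were lower and none was higher, against 0 lower and 1 higher with scaling to summed counts per kb. Parl, a mitochondrial protease, had -0.30 and did not pass (edgeR adjusted p = 0.0819). Atp2a2 is the calcium pump that Hax1 binds, and its groups overlapped although the call passed. Without AAV9-CTRL replicate 3 it had -0.48 and did not pass.

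Among 17 tested genes listed as other survival genes, 5 were higher, 8 lower and 4 not passed. With scaling to summed counts per kb 6 were higher and 2 lower, and with the length correction 3 were higher and 5 lower. The higher genes were the IAP family members Naip2 (0.55), Naip5 (0.69), Naip6 (0.73) and Birc6 (0.61), with Bag4 (0.35). The Naip genes were listed as IAP family members, and whether they act in survival was not tested. They are close copies, so their split of reads is uncertain. The Birc6 groups overlapped, and Birc6 did not pass with the length correction (0.03), or without AAV9-hFNDC4 replicate 2 (0.52) or 3 (0.57) or AAV9-CTRL replicate 3 (0.60). Bag4 did not pass without AAV9-hFNDC4 replicate 1 (0.31) or 3 (0.39), or AAV9-CTRL replicate 3 (0.34), nor with the length correction (0.24), the GC correction (0.30) or without a low-count filter (0.37). Those lower with the smallest p were Bag3, Ier3 (-1.83), Api5 (-0.72) and Bag1 (-0.62), of which Bag1 did not pass with the length correction (-0.21). Birc5, the IAP of dividing cells also known as survivin, had a log2 fold change of -0.17 and did not pass.

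**Figure D5:**
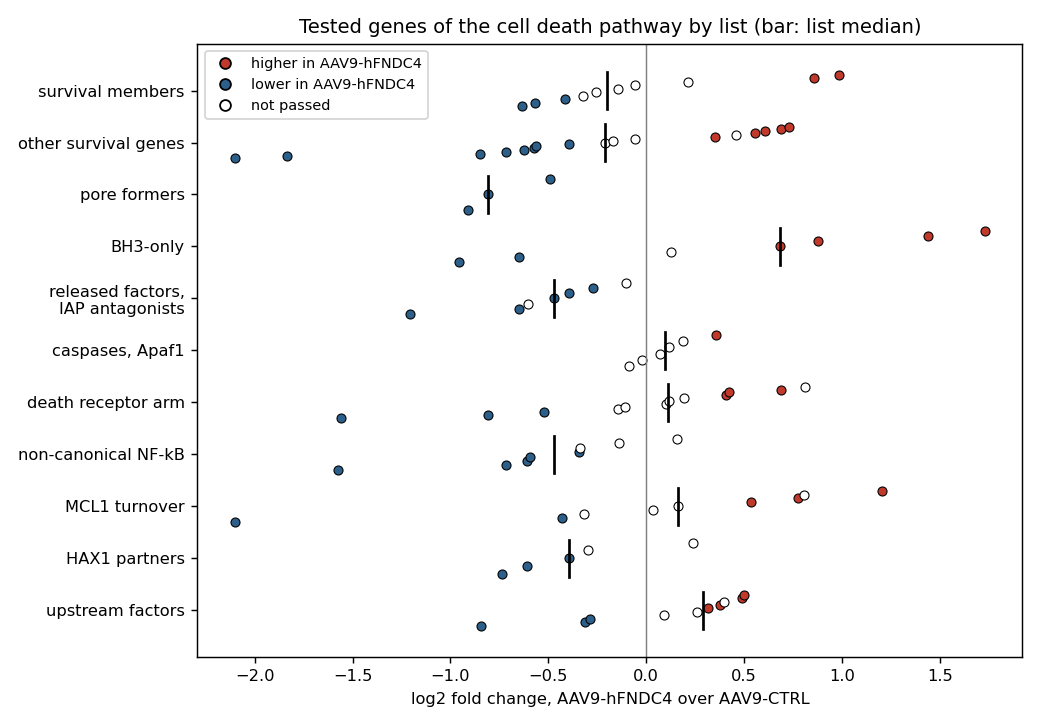
Log2 fold changes, AAV9-hFNDC4 over AAV9-CTRL, of the tested genes in each list, one row per list, with genes that passed as filled points, those that did not as open points, and the list median as a bar. The 3 pore formers lie below 0, with a median of -0.81, and genes of the BH3-only list lie on both sides, with a median of 0.68.

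Because the title of the series names HIF1α, the promoters of the members were searched for a form of its core motif. HIF1α binds letters such as ACGTG next to genes that respond to low oxygen. ACGTG alone was searched and is called the core below. Other forms such as GCGTG were not counted, and windows without ACGTG may hold them, as those of Bcl2l1 and Birc2 do. Of 10 tested transcription factors upstream of the members, Srf (-0.84) was lower and Hif1a (0.49), Stat3 (0.38) and Creb1 (0.50) were higher, with 4 higher and 3 lower in all. With the length correction the list gave 1 higher and 1 lower, and with scaling to summed counts per kb 7 higher and 1 lower. Stat3 did not pass without AAV9-hFNDC4 replicate 3 (0.33) and Creb1 without AAV9-CTRL replicate 3 (0.39), nor either with the length correction (Stat3 0.15, Creb1 0.12). The other lower genes were Rela (-0.31) and Trp53 (-0.29). Neither passed without AAV9-hFNDC4 replicate 1 or 3, or without AAV9-CTRL replicate 1 or 3. Stat5b (0.32), the remaining higher gene, did not pass without AAV9-hFNDC4 replicate 1 or 3 or AAV9-CTRL replicate 3. RefSeq (GRCm38.p6) gave 15 windows, from 250 bases before to 50 after a start site, for 9 of the members, and none for Nol3. ACGTG, read on both strands, was in 3 of the 15 windows, 1 each of Xiap, Cflar and Hax1, against 20.9% of 21263 protein-coding windows. It overlapped no match of the other motifs searched. These windows are shown since they belong to a member that rose, a member that did not pass and a member that fell, with the core in capitals, each on the strand of its gene.
Xiap, chrX:42068148-42068447, plus strand: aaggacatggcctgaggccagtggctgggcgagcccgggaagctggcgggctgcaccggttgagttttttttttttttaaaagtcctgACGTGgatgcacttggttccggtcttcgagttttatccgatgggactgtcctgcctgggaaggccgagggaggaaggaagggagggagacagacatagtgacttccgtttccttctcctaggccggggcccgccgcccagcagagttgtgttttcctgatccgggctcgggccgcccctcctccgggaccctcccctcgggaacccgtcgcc
Cflar, chr1:58711241-58711540, plus strand: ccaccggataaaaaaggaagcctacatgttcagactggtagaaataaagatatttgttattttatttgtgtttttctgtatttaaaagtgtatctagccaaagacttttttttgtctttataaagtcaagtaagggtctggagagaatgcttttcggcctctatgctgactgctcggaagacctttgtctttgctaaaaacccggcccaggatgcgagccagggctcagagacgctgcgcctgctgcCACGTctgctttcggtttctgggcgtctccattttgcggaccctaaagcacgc
Hax1, chr3:89998667-89998966, minus strand: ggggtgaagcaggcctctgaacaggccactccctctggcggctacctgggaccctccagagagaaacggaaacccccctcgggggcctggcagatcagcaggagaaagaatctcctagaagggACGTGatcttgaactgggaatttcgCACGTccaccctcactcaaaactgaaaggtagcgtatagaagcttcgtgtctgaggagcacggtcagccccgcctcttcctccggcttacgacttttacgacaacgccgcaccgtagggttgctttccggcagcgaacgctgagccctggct
The core begins at -162 from the start site in Xiap, at -3 in Cflar, and at -127 and -102 in Hax1. Of the other motifs, the GC box GGGCGG was in 7 of the 15 windows, against 46.2% of all windows, and the NF-kB motif was in 3, against 9.25%. The cAMP response element TGACGTCA was in 1 window, that of Birc2, against 2.23%, the heat shock element GAANNTTC in 1, against 7.21%, and the AP-1 motif TGANTCA in none, against 6.99%. A match is a description of letters and not a bound site, and no match says only that these letters are not in the window.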

How the data were processed

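The values deposited by the authors are raw counts of reads, given per gene symbol for each library and not normalized. Per the submitters' processing notes, fastp, HISAT2, HTSeq, R 3.2.0 and DESeq2 were used with the mouse build GRCm38 (mm10). The sources used here give neither their roles and parameters nor the annotation and strand setting. RNA was extracted with TRIzol, per the labels' protocols.

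From these counts, library sizes were scaled by TMM and groups compared with edgeR 4.0.16 in R 4.3.3 (quasi-likelihood F test, robust, default filterByExpr). Benjamini-Hochberg adjustment covered all 14663 genes tested, with a threshold of 0.05. SE is the log2 fold change over the square root of F. The scripts were first tested on simulated data. CPM of markers used plain library totals, and all other CPM used TMM sizes. Exon lengths, GC content and exon overlaps came from GENCODE vM21 basic (GRCm38), which gave a length for 92.5% of tested genes. Library totals of 32975817 to 36074046 reads gave the fewest reads among the members to Birc3.

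The members and lists were chosen with earlier results of these data known. All members were named, with up to 4 genes of smallest p per other list and Bax, Bak1, Casp9, Bid, Diablo, Htra2, Traf2 and Ripk1. Tradd, Huwe1, Aifm1, Bnip3, Bmf, Ltbr, Bag4, Birc5, Birc6, Rela, Trp53, Stat5b and the Naip genes were named after their values were seen. Beyond these, 1 gene that was chosen by name is not reported here. Alternatives were RLE and upper-quartile factors, no filter, a filter of 1 CPM in 3 libraries, DESeq2 1.42.0, limma-voom (limma 3.58.1), the replicate number as a block, loess corrections (span 0.4) for length and GC, and leaving out each library. Scaling to summed counts per kb, and the ratios with corrections, were added with the data in view.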

Additional observations from a re-analysis of the deposited data

How the results depend on the processing

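Of 159 member values under 16 alternatives, 139 kept their direction and side of the threshold, 6 lost the call, 4 gained it and 10 changed sign. Calls and directions of Xiap (0.66 to 1.38) and Bcl2 (0.46 to 1.26) held in all. Scaling to summed counts per kb, added after the data had been seen, moved the median log2 fold change of all tested genes to 0.41. It gave 6512 genes higher and 1567 lower, 4 members higher and 0 lower (edgeR), and 36 other pathway genes higher and 9 lower. Under it Mcl1 had -0.17, Hax1 -0.23, Bcl2l1 -0.018, Birc2 0.61, Birc3 0.071, Bcl2l2 0.26, Cflar 0.14, Nol3 0.35 (edgeR adjusted p = 0.0378), Casp8 0.32, Htra2 0.0098 and Parl 0.11. Relative to that median, Mcl1 had -0.57, Hax1 -0.64, Bcl2l1 -0.43, Birc2 0.21, Birc3 -0.34, Bcl2l2 -0.15, Cflar -0.26 and Nol3 -0.062. The length correction gave Hax1 -0.19, Cflar -0.59, Nol3 0.0061, Ripk1 -0.17, Apaf1 -0.22, Parl 0.059, Casp8 0.015, a Mcl1 to Bax difference of -0.13 and 21 other pathway genes lower. The GC correction gave Bcl2l1 -0.26, Bcl2l2 0.0025, Cflar -0.27 and Nol3 0.12, and the 1 CPM filter gave Cflar -0.26. Leaving out each library gave -0.47 to -0.31 for Bcl2l1, -0.24 to 0.053 for Bcl2l2, -0.10 to 0.044 for Nol3 and 12 to 22 other pathway genes higher. The cause of these shifts was not tested. With the replicate number as a block (replicate block), 2663 genes were higher and 3080 lower, members stayed at 2 and 3, and no member call changed, while Casp9 (adjusted p = 0.110), Endog (0.0572), Aifm1 (0.123), Bag4 (0.0853) and Ltbr (0.0576) no longer passed among the other genes named (edgeR). Deviations of same-numbered libraries from their group means correlated at -0.14, -0.28 and -0.12, and none correlated best with its own number. With 3 libraries per group these correlations depend on each other, so they cannot show whether libraries were paired. Of 640 values of 40 other named genes, 583 kept direction and call. Counts were lowest for Birc3, which had the largest SE of the members.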
